A study of Mus musculus with 2 samples.

Results

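Kruppel-like factors (KLFs) were followed in single cells of the mouse lung through 8 genes, Klf2, Klf3, Klf4, Klf6, Klf7, Klf9, Klf10 and Klf13, which were taken by gene symbol from the 31053 genes of the count matrices. The lungs came from C57/B6 mice aged 2-4 months that lived in normoxia or spent 3 weeks in hypoxia. Each condition has 1 library, and the study's text names 3 wild-type animals in hypoxia without saying how they were pooled. Blood was flushed out, the tissue was digested, and leukocytes and epithelial cells were depleted with beads against CD45 and CD326. Endothelial cells (ECs) made up most of the cells kept here. Neither condition was replicated at the level of libraries, so no test is given, every interval below covers counting error only, and hypoxia, library and animal cannot be told apart.

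KLFs are zinc finger transcription factors that bind GC-rich and CACCC elements in promoters. Klf2 and Klf4 are best known in endothelium, where steady laminar flow induces them through a kinase cascade that ends in ERK5 (gene Mapk7) and MEF2 factors, and where they promote a quiescent, anti-thrombotic and anti-inflammatory state. Klf3 is a repressor that recruits CtBP, Klf6 responds to injury, Klf7 is best known from growing neurons, Klf9 is induced by glucocorticoid and thyroid hormone, Klf10 is induced early by TGF-beta, and Klf9, Klf10 and Klf13 can recruit the Sin3 corepressor. Several KLFs are also induced within minutes by stress, as are the immediate-early genes Fos, Jun and Egr1.

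The bases upstream of 5 members are shown because Klf2, Klf4, Klf6 and Klf9 differed with the immediate-early share of the cells in both libraries, as described below, while Klf13 had the ratio between the libraries nearest to 1. The sequences are from RefSeq on GRCm38.p6, in which 7 of the 8 members had an entry, and are written 5′ to 3′ on the strand of the gene. They stop at the RefSeq start or, where the annotated gene begins before it, at that gene. The window of Klf4 ends short of the annotated gene. Capitals mark matches, on either strand, to the MEF2 motif, the CRE core TGACG, the AP-1 motif TGANTCA and the KLF core CACCC. The SRF-binding CArG box was searched too and had no match in these 5.
Klf2 (chr8:72318812-72319032, plus strand): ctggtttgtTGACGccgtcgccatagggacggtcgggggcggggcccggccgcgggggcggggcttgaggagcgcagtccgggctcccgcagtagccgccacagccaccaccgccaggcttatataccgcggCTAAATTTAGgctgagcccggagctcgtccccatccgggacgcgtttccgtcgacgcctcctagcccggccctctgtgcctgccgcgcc
Klf4 (chr4:55532476-55532725, minus strand): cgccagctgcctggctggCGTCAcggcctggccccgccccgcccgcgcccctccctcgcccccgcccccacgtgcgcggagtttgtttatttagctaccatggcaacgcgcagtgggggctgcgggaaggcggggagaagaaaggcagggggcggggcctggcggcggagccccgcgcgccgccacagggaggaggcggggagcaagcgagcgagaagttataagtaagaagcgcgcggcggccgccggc
Klf6 (chr13:5861239-5861481, plus strand): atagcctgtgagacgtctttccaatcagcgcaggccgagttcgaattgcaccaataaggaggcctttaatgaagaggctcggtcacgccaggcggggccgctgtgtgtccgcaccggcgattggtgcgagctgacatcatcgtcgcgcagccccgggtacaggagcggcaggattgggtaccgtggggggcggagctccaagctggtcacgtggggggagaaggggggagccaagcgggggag
Klf9 (chr19:23140976-23141225, plus strand): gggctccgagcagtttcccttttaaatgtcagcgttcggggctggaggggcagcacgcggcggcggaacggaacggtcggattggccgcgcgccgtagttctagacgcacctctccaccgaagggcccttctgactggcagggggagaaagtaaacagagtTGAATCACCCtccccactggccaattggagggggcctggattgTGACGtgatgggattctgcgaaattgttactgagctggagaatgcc
Klf13 (chr7:63938916-63939165, minus strand): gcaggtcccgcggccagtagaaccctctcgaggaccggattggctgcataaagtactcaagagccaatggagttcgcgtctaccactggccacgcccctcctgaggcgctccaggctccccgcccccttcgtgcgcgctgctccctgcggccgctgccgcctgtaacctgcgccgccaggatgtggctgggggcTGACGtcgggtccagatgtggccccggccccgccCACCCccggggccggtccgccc
The window of Klf2 held the MEF2 match CTAAATTTAG, which begins 118 bases before the RefSeq start, and 2.92% of 32851 mouse promoter windows of 250 bases held such a match. Klf9 held an AP-1 match 89 bases before its start, a motif found in 6.75% of windows. Klf2, Klf4, Klf9 and Klf13 held a CRE core, as 4 of the 7 members with an entry, while 17.8% of windows hold one. The windows of the 5 members shown had 59.6% (Klf9) to 74.0% (Klf4) GC, against a median of 52.4% over all windows. The part of this difference in the matches was not tested. Klf6 held no match to any motif marked by capitals, and Klf3 and Klf7, not shown, held only CACCC cores among them. Klf9 and Klf13 held a CACCC core in the bases shown and Klf2 1 in the bases closer to its start that are not shown, and 52.0% of windows hold it. The AP-1 and CACCC matches of Klf9 overlap, as does the CACCC match of Klf13 with a GC box (GGGCGG on either strand, in 32.7% of windows, not capitalised). These matches are descriptions of letters and not of binding. On GRCm38 the genes span chr8:72319033-72321656 (Klf2, 3 exons), chr4:55527143-55532466 (Klf4, 5 exons), chr13:5861482-5870394 (Klf6, 4 exons), chr19:23141226-23168134 (Klf9, 2 exons) and chr7:63886351-63938915 (Klf13, 2 exons). Klf3, Klf7 and Klf9 overlap another annotated gene on their own strand, and Klf3, Klf7 and Klf13 one on the other strand. The part of the neighbours on the same strand in the counts was not tested.

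Of 2223 normoxia and 809 hypoxia barcodes, 1348 and 689 passed the limits on detected genes and mitochondrial UMIs, with 5173361 and 2294966 UMIs (a UMI marks 1 captured transcript). No kept barcode occurred in both libraries. Clusters that carried EC markers held 820 normoxia and 528 hypoxia cells (EC-like, 3557537 and 1996358 UMIs). Within them, markers named aerocyte-like (124 and 62 cells), general capillary-like (492 and 361), arterial-like (127 and 5), venous-like (58 and 20) and lymphatic-like (11 and 3) cells. The names held with limits. The 2 clusters with most general capillary-like cells of hypoxia (204 and 127 cells) held 7 and 4 normoxia cells, and 77 hypoxia against 8 normoxia EC-like cells had no subtype. In 3 EC-like clusters the 10 leading genes within ECs included markers of other classes, namely Inmt, Mfap4 and Pdgfra (47 normoxia and 2 hypoxia cells), Hopx (30 and 25) and Sftpc with Scgb1a1 (4 and 127). The libraries also differed in the summed share of 16 immediate-early genes, which took 2.38% of EC-like UMIs in normoxia and 0.785% in hypoxia.

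In normoxia Klf2, Klf3, Klf4, Klf7, Klf10 and Klf13 were higher in EC-like than in fibroblast-like cells, whereas Klf9 was lower. The level of a gene is given as UMIs per 1000000 UMIs of the group (CPM). Because tags from the 3′ end do not measure molecules equally well for all genes, levels are compared between groups and not between genes. Klf7 stood at 909 CPM (95% interval 878 to 941) in normoxia EC-like cells against 108 CPM (86.6 to 133) in the 184 fibroblast-like cells, a ratio of 8.44 (6.83 to 10.5). The ratio was 7.34 (6.35 to 8.53) for Klf4 and 6.0 (5.32 to 6.79) for Klf2. These are the steepest of the 8, and both flow-responsive members are among them. It was 4.35 (2.78 to 7.21) for Klf10 and 4.18 (3.38 to 5.23) for Klf3. Klf13 had the smallest such difference, 1.71 (1.46 to 2.0). Klf9 went the other way with a ratio of 0.601 (0.535 to 0.677), and Klf6 stood at 0.806 (0.714 to 0.913), short of the fold used here. Both ratios differed by fibroblast-like cluster. The cluster that held 89 of the 184 cells had Klf9 at 124 CPM and Klf6 at 116 CPM, below the EC-like levels of 286 and 331 CPM. Its immediate-early share was 0.325%, against 2.38% in all fibroblast-like cells of normoxia, and the part of this was not tested. A gene is counted as past the fold when its ratio was at least 1.5, or at most the inverse of that, and its interval left out 1. Of 8491 genes with at least 50 UMIs, 25.1% were past it on the higher and 17.4% on the lower side, against 6 and 1 of the 8 members.

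**Figure D1:**
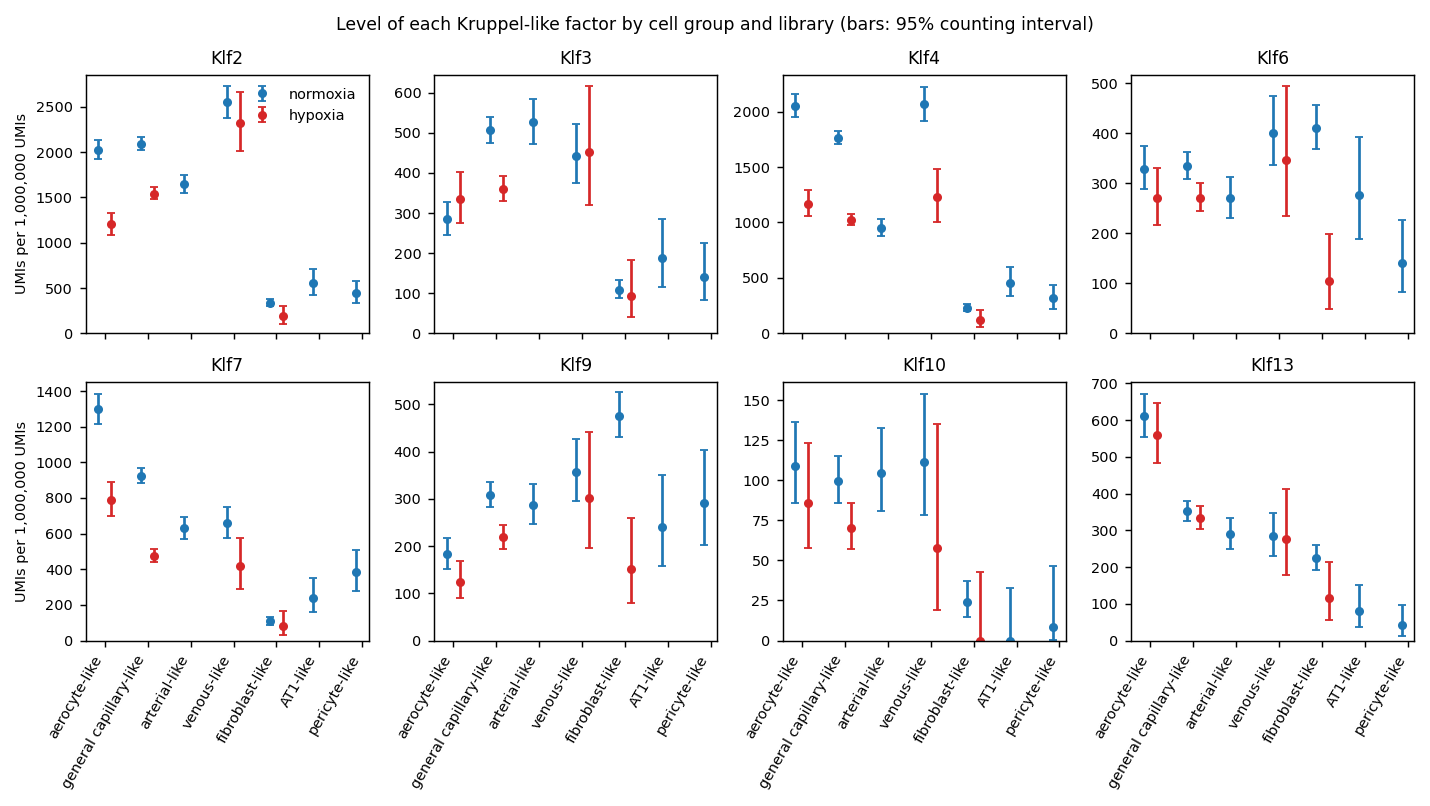
Level of each member (UMIs per 1000000 UMIs, linear axes from 0) in EC subtypes, fibroblast-like, alveolar type 1-like (AT1-like) and pericyte-like cells with at least 20 cells in the library, with points for normoxia (blue) and hypoxia (red) and bars for the exact 95% Poisson interval. Klf2, Klf4, Klf7 and Klf10 stand above fibroblast-like cells in all EC subtypes shown, and Klf13 is highest in aerocyte-like cells of both libraries.

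Among EC subtypes, Klf2 was highest in venous-like cells of both libraries. It stood at 2549 CPM there in normoxia and at 2326 CPM in hypoxia. General capillary-like cells stood at 2095 and 1544 CPM and aerocyte-like cells at 2023 and 1205 CPM. The venous-like cells of hypoxia were past the fold over general capillary-like cells, at 1.51 (1.3 to 1.74), beside 6.18% of all genes on the higher side. In normoxia the same ratio was 1.22 (1.13 to 1.31), and general capillary-like and aerocyte-like cells could not be ordered, at 1.03 (0.974 to 1.1). Arterial-like cells were lowest of these subtypes in normoxia, with 1651 CPM of Klf2. The immediate-early share was also highest in venous-like cells, 3.37% in normoxia and 1.08% in the 20 cells of hypoxia. It was 3.04% and 0.797% in general capillary-like, 1.54% and 0.901% in aerocyte-like and 0.998% in arterial-like cells of normoxia. Its part in the order of Klf2 was not tested.

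Klf4 had another order. In normoxia venous-like and aerocyte-like cells stood at 2067 and 2054 CPM, not separable at a ratio of 1.01 (0.917 to 1.1), followed by general capillary-like cells at 1765 CPM and arterial-like cells at 954 CPM. Klf4 was thus past the fold on the lower side in arterial-like against general capillary-like cells, at 0.541 (0.495 to 0.59), as 1 of the 8 members, beside 5.55% of all genes. Their immediate-early share was 0.998% against 3.04% in general capillary-like cells, and its part in the ratio was not tested. In hypoxia venous-like (1226 CPM), aerocyte-like (1169 CPM) and general capillary-like (1026 CPM) cells stood in the same sequence, again without a separation between the first and the second.

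Aerocytes, the large capillary ECs that lie along the gas exchange surface and are marked by Car4 and Ednrb, carried more Klf13 and less Klf9 than general capillary ECs in both libraries. Klf13 stood at 611 CPM in aerocyte-like and 352 CPM in general capillary-like cells of normoxia, and at 561 and 334 CPM in hypoxia. The ratios were 1.74 (1.53 to 1.97) and 1.68 (1.41 to 1.99), so the libraries gave the same difference within counting error. Klf9 stood at 182 and 308 CPM in normoxia, a ratio of 0.592 (0.485 to 0.718), and at 124.6 and 218 CPM in hypoxia, a ratio of 0.571 (0.403 to 0.79). Klf7 was higher in aerocyte-like cells by 1.4 (1.29 to 1.52) in normoxia and 1.67 (1.44 to 1.92) in hypoxia, past the fold in the second alone. Klf3 was lower in normoxia, at 284 against 506 CPM with a ratio of 0.562 (0.48 to 0.655), but not in hypoxia, at 335 against 360 CPM with a ratio of 0.931 (0.752 to 1.14). Klf6 and Klf10 had intervals that included 1 in both libraries. Of the 8 members, 1 was past the fold on the higher and 2 on the lower side in normoxia, and 2 and 1 in hypoxia. Of all genes tested in this comparison, 14% were higher and 16.6% lower in normoxia, and 12.9% and 17.4% in hypoxia. The counts of members are thus near the share of all genes.

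Outside the ECs, Klf9 was the member with its highest level in normoxia, among groups of at least 20 cells, in fibroblast-like cells, 476 CPM (430 to 525), 1.34 (1.09 to 1.66) times the venous-like level. In hypoxia venous-like cells held the highest Klf9 level, 301 CPM (197 to 441), against 151 CPM (80.5 to 258) in fibroblast-like cells. Klf6 was level between fibroblast-like (411 CPM) and venous-like cells (401 CPM) of normoxia. The fibroblast-like cells were not alike: the cluster with 89 of the 184 normoxia cells held Klf9 at 124 CPM and Klf6 at 116 CPM. Its immediate-early share in normoxia was 0.325%, against 2.38% in all fibroblast-like cells of normoxia. Its median depth over both libraries was 1109.5 UMIs, against 3994.5 in those cells. The part of share and depth in this difference was not tested. Klf10 was not seen in 42 AT1-like cells (alveolar type 1, the flat epithelium) of normoxia, where 0 of 112142 UMIs allows up to 26.8 CPM at 3 counts, nor in 34 fibroblast-like cells of hypoxia, where the same floor is 34.9 CPM. Free RNA may add to all of these levels: the EC transcripts Cdh5, Pecam1, Cldn5 and Egfl7 together reached 2.26% of their EC-like level in fibroblast-like cells of normoxia, 28.1% in AT1-like and 9.29% in pericyte-like cells. Klf2 (553 CPM), Klf4 (455 CPM) and Klf7 (241 CPM) in AT1-like cells of normoxia lay near what that share of their EC-like levels would give. They are not read as expression.

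After 3 weeks of hypoxia the EC-like cells held less Klf4 and Klf7, and Klf2, Klf3, Klf6, Klf9 and Klf10 were lower but within the fold. Klf4 stood at 1680 CPM (1638 to 1724) in the normoxia library and at 1026 CPM (982 to 1072) in the hypoxia library, a ratio of 0.611 (0.581 to 0.642). Klf7 stood at 909 CPM and 544 CPM (513 to 578), a ratio of 0.599 (0.559 to 0.642). These were the 2 members past the fold, both on the lower side, beside 7.94% of 8714 genes on that side and 7.13% on the higher one. Without the 3 clusters that had markers of other classes in the lead, Klf4 stood at 0.635 (0.602 to 0.669) and Klf7 at 0.619 (0.576 to 0.665).
Klf2 stood at 2020.2 CPM (1974 to 2068) and 1499.7 CPM (1446 to 1554), a ratio of 0.742 (0.711 to 0.775). Klf10 had 105 and 73.6 CPM (0.699, 0.573 to 0.848) and Klf9 286 and 206 CPM (0.721, 0.642 to 0.81). Klf6 had 331 and 272 CPM (0.823, 0.742 to 0.912) and Klf3 had 456 and 376 CPM (0.826, 0.756 to 0.901). Klf13, at 383 and 378 CPM, had a ratio of 0.988 (0.903 to 1.08). The median ratio of the 8 members was 0.732, and that of all genes tested was 1.02.

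**Figure D2:**
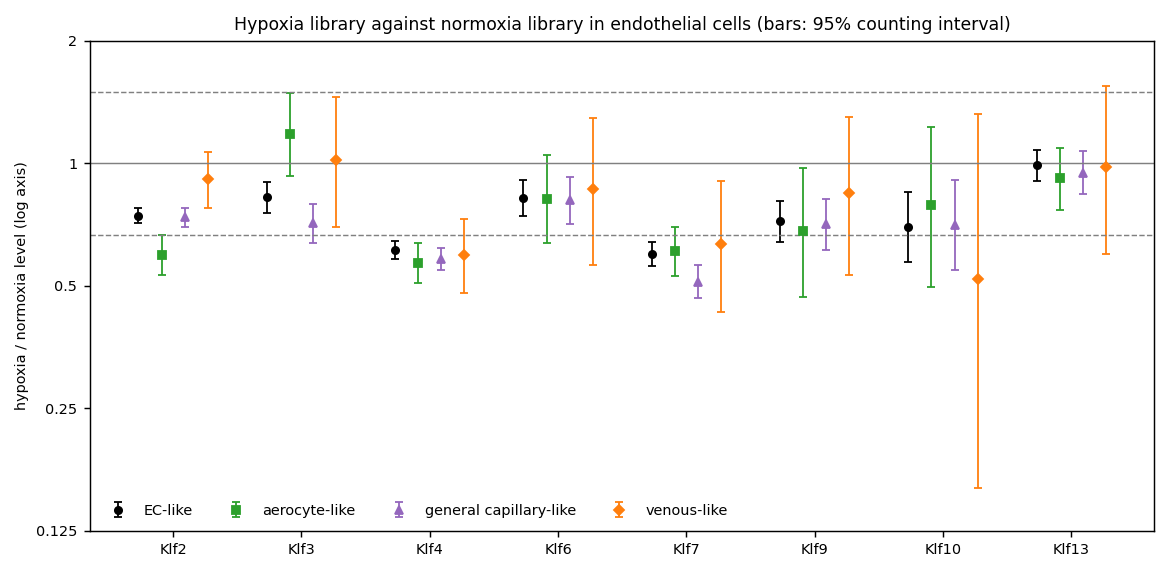
Hypoxia level divided by normoxia level of each member (log axis) in all EC-like cells and in 3 EC subtypes, with exact 95% intervals and dashed lines at the fold of 1.5 in each direction. Klf4 and Klf7 lie under the lower dashed line in all 4 groups, Klf2 does so in aerocyte-like cells only, and Klf13 stays near 1.

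Klf4 and Klf7 were past the fold in each of the 3 named EC subtypes with at least 20 cells in both libraries, while Klf2 differed by subtype. In aerocyte-like cells Klf2 had a ratio of 0.595 (0.532 to 0.665), Klf4 of 0.569 (0.508 to 0.637) and Klf7 of 0.608 (0.529 to 0.698), the 3 members past the fold beside 6.84% of genes on the lower side. In general capillary-like cells Klf4 stood at 0.581 (0.546 to 0.619) and Klf7 at 0.512 (0.467 to 0.561), beside 10.5% of genes, with Klf2 at 0.737 (0.698 to 0.777). These cells came largely from unlike clusters. The clusters with 204 and 127 hypoxia cells held 7 and 4 normoxia cells. Those with 153 and 47 normoxia cells held 2 hypoxia cells each. Their immediate-early share in normoxia was 4.175% and 3.435%, against 0.797% in all general capillary-like cells of hypoxia. The part of this make-up in the ratios was not tested. In venous-like cells Klf4 stood at 0.593 (0.479 to 0.729) and Klf7 at 0.633 (0.432 to 0.904), beside 9.47% of genes, and the Klf2 interval included 1 (0.912, 0.778 to 1.06). The intervals of Klf2 in aerocyte-like and venous-like cells did not overlap. The difference between subtypes in Klf3 ran from 0.711 (0.636 to 0.794) in general capillary-like to 1.18 (0.928 to 1.49) in aerocyte-like cells.

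Single clusters that held cells of both libraries were compared next. The larger aerocyte-like cluster (94 normoxia and 37 hypoxia cells, immediate-early share 1.6% and 0.956%) gave 0.617 (0.55 to 0.69) for Klf2, 0.57 (0.507 to 0.639) for Klf4 and 0.621 (0.538 to 0.714) for Klf7, beside 6.58% of its genes on the lower side. The other aerocyte-like cluster, which had Hopx among its leading genes (30 and 25 cells, immediate-early share 0.459% and 0.262%), gave 0.297 (0.127 to 0.616) for Klf2 and 0.766 (0.415 to 1.37) for Klf4, beside 12.6%, and Klf7 had 26 and 9 UMIs, under the minimum of 50 in sum (0.502, 0.207 to 1.11). A general capillary-like cluster led by Plvap and Aplnr (146 and 12 cells, immediate-early share 1.96% and 1.33%) gave 0.743 (0.543 to 0.995) for Klf2, 0.624 (0.397 to 0.937) for Klf4 and 0.539 (0.284 to 0.931) for Klf7, beside 4.06%. In a further general capillary-like cluster (120 and 10 cells), whose immediate-early share was 1.91% in normoxia and 1.92% in hypoxia, Klf2 stood at 0.617 (0.373 to 0.967), Klf4 at 0.323 (0.138 to 0.644) and Klf7 at 0.615 (0.332 to 1.05), beside 7.91%. The ratios of all 3 genes lay below 1 in these 4 clusters, but the interval included 1 for Klf4 and Klf7 in the smaller aerocyte-like cluster and for Klf7 in the last one. They rest on 8 to 47 hypoxia UMIs per gene in the general capillary-like clusters and 9 to 19 in the smaller aerocyte-like one. The EC-like cells also carried Sftpc, the surfactant gene of epithelial cells, at 112 CPM in normoxia and 192 CPM in hypoxia. Another 7 genes used to set other cells apart, Ptprc, Epcam, Col1a2, Pdgfrb, Pf4, Dcn and Prox1, stood between 0.281 CPM (Epcam) and 12.1 CPM (Prox1) in normoxia. Of these genes, Prox1 marks lymphatic ECs, so leaving out cells with it takes out ECs as well. Cells without a UMI of these 8 genes (called other-class genes below) gave 0.645 (0.606 to 0.687) for Klf2, 0.616 (0.573 to 0.662) for Klf4 and 0.606 (0.549 to 0.668) for Klf7.

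The share of cells with a UMI, counted after each cell had been thinned to 1000 UMIs, ran the same way. Klf2 was seen in 78.3% (75.3 to 81.1) of 793 normoxia and 68.2% (63.6 to 72.5) of 443 hypoxia EC-like cells, and Klf4 in 66.1% (62.7 to 69.4) and 49.7% (44.9 to 54.4). Before thinning, over all 820 and 528 EC-like cells, these shares were 94.2% and 80.1% for Klf2 and 86.1% and 70.3% for Klf4, at median depths of 3999.5 and 3052 UMIs. In fibroblast-like cells of normoxia, thinned alike to 1000 UMIs, 21.9% of 137 cells had a UMI of Klf2 and 15.3% of Klf4. The median depth of these cells before thinning was 5939 UMIs. Both genes were often seen together. At this depth Klf4 was present in 52.3% (44.6 to 60) of normoxia EC-like cells without a Klf2 UMI and in 76.9% (71.2 to 81.9) of those with 3 or more, and in 39% (30.9 to 47.6) and 66.3% (55.1 to 76.3) of the hypoxia cells.

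The levels of Klf2, Klf4, Klf6 and Klf9 moved with the immediate-early share of the cells within each library. EC-like cells of a library were ordered by that share and divided into 4 equal groups. In normoxia the share ran from 0.282% in the lowest group to 5.24% in the highest, and Klf4 from 902 to 2412 CPM, a ratio of 2.68 (2.45 to 2.92). Klf9 went from 187 to 365 CPM (1.95, 1.59 to 2.4), Klf2 from 1395 to 2541 CPM (1.82, 1.69 to 1.96) and Klf6 from 214 to 380 CPM (1.77, 1.46 to 2.15). These 4 were past the fold, beside 7.07% of all genes on the higher side. Klf3, Klf7, Klf10 and Klf13 were not, with ratios of 1.17, 1.14, 0.97 and 1.11.
In hypoxia the share ran from 0.124% to 1.96%, and all members but Klf10 were past the fold, beside 7.03% of genes. Klf4 went from 547 to 1540 CPM (2.82, 2.41 to 3.31), Klf9 from 127 to 284 CPM (2.24, 1.6 to 3.2) and Klf2 from 918 to 1938 CPM (2.11, 1.86 to 2.4). The 4 groups also differed in depth, with medians from 1600.5 to 3983 UMIs in hypoxia and from 3319 to 4344 in normoxia. They were not matched by subtype, and the part of depth and subtype in these ratios was not tested.

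**Figure D3:**
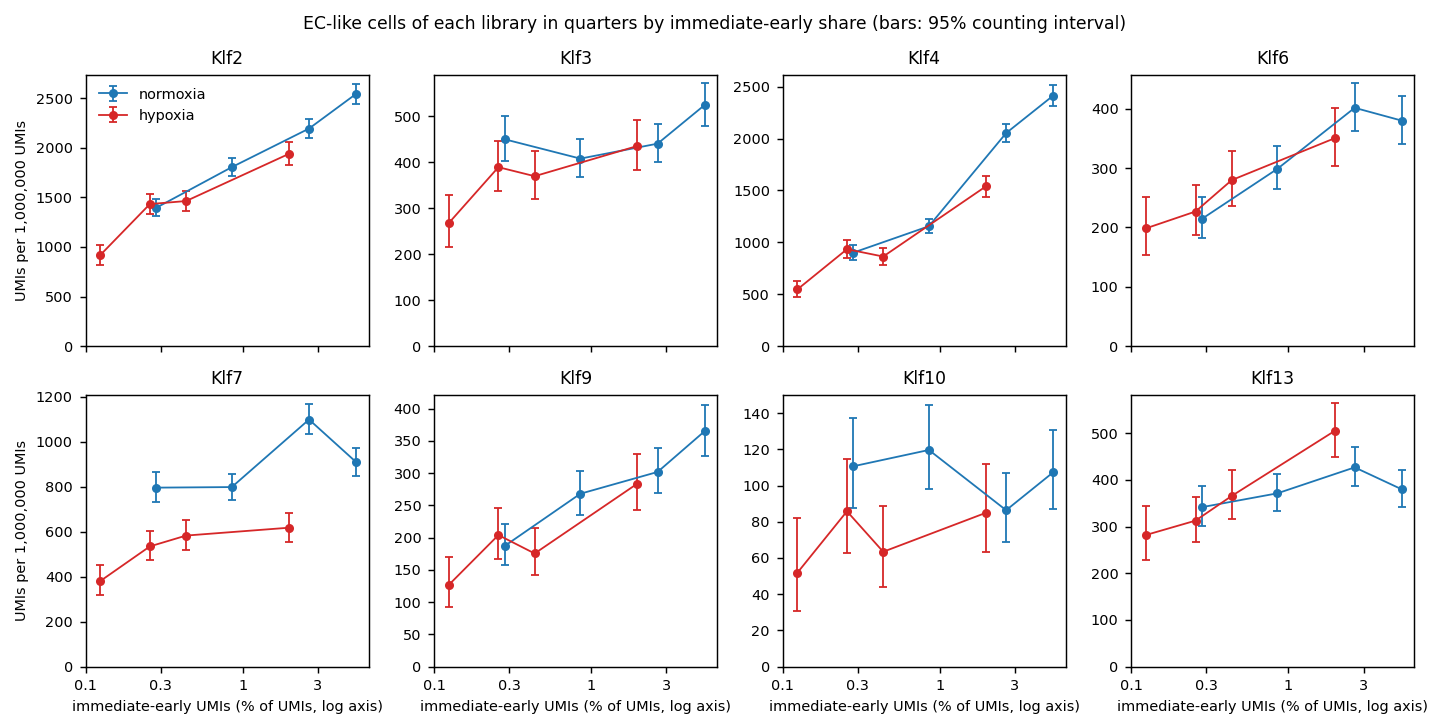
Level of each member (UMIs per 1000000 UMIs) in EC-like cells of each library, divided into 4 equal groups by the share of UMIs from 16 immediate-early genes (log axis), with exact 95% Poisson intervals. The normoxia and hypoxia lines of Klf2, Klf4, Klf6 and Klf9 run close to each other where the shares meet, whereas the hypoxia line of Klf7 lies under that of normoxia throughout.

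When cells of like immediate-early share were compared, the ratios of Klf2 and Klf4 between the libraries came nearer to 1, and that of Klf7 went from 0.599 to 0.668, which is within the fold. For this comparison, chosen after the values had been seen, EC-like cells of both libraries were divided into 10 equal bins by their share and the ratio was pooled within bins, which held 7 to 104 hypoxia and 31 to 128 normoxia cells. The bins matched the share and not the subtype. Arterial-like cells were 127 of 820 EC-like cells in normoxia and 5 of 528 in hypoxia. In normoxia they had a share of 0.998%, with Klf4 at 954 CPM and Klf2 at 1651 CPM. The part of this make-up in the pooled ratios was not tested. Klf2 then stood at 0.953 (0.9085 to 0.9996), Klf4 at 0.941 (0.889 to 0.996), Klf6 at 1.05 (0.931 to 1.17) and Klf9 at 0.949 (0.835 to 1.08). Klf7 stood at 0.668 (0.619 to 0.721) and Klf10 at 0.677 (0.551 to 0.832), the lowest of the members. Klf3 stood at 0.893 (0.812 to 0.983) and Klf13 at 1.108 (1.005 to 1.221). No member was past the fold in this form, beside 7.73% of all genes on the lower and 6.91% on the higher side.
Aerocyte-like cells differed from this. Pooled within the same bins, Klf2 stood at 0.726 (0.646 to 0.815), Klf4 at 0.691 (0.613 to 0.779) and Klf7 at 0.649 (0.56 to 0.751) there, whereas general capillary-like cells gave 0.971 (0.909 to 1.04), 1.07 (0.989 to 1.16) and 0.615 (0.548 to 0.69). The intervals of Klf2 and Klf4 in these subtypes did not overlap. The clusters with most general capillary-like cells of hypoxia (204 and 127) held 7 and 4 normoxia cells, so the bins there compared mostly unlike clusters. In the general capillary-like clusters shared by both libraries, with 10 and 12 hypoxia cells, Klf2 stood at 0.617 and 0.743 and Klf4 at 0.323 and 0.624 without bins. Whether the lower ratios are particular to aerocyte-like cells was not tested.

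**Figure D4:**
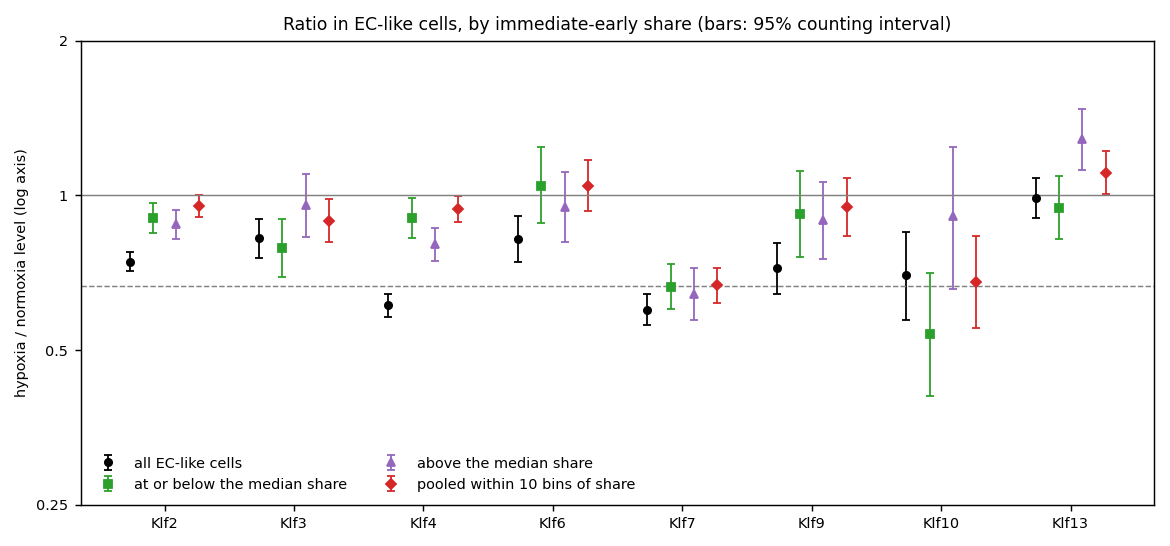
Hypoxia level divided by normoxia level of each member in EC-like cells (log axis), in all cells, in cells at or below and above the median immediate-early share of both libraries, and pooled within 10 bins of that share, with 95% intervals. Klf4 moves from 0.611 in all cells to 0.941 within bins and Klf2 from 0.742 to 0.953, while Klf7 moves from 0.599 to 0.668.

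The genes of the flow pathway were mostly within the fold between the libraries. Of 16 upstream genes (the MEKK, MEK5 and ERK5 kinases, MEF2 factors, the CCM complex and flow sensors at the cell surface), 1 was past the fold, Mapk7, which encodes ERK5, at 12.7 CPM in normoxia and 20.04 CPM in hypoxia (1.58, 1.01 to 2.48), and their summed ratio was 1.01 (0.988 to 1.03). Over all genes tested, 7.13% were past the fold on the higher side and 7.94% on the lower, so 1 of 16 is about the share of all genes. Cdh5 (2169.5 CPM in normoxia), Pecam1 (1322.3 CPM) and Kdr (1113.7 CPM) of this list were also markers used to name EC-like cells. All 16 together stood at 6464 CPM in normoxia. The part of these markers in the summed ratio was not tested. Pooled within bins, Mapk7 stood at 1.5 with an interval that included 1 (0.918 to 2.45) and was not past the fold. In this form 2 of the 16 were past it on the lower side, beside 7.73% of all genes. They were Kdr, the VEGF receptor, at 0.651 (0.611 to 0.693) and Map3k2 at 0.652 (0.49 to 0.866).
Of 9 tested genes that laminar flow or KLF2 and KLF4 raise, 3 were higher in hypoxia, beside the same 7.13% of all genes. Gja4, a gap junction gene of arterial ECs, stood at 216 and 428 CPM (1.98, 1.8 to 2.19), Nos3, the endothelial nitric oxide synthase, at 34.3 and 59.6 CPM (1.74, 1.34 to 2.26), and Ass1, which supplies arginine, at 39.6 and 66.6 CPM (1.68, 1.32 to 2.15). Gja4 was also a marker used to name arterial-like cells, which were 127 of 820 EC-like cells in normoxia and 5 of 528 in hypoxia. The part of this make-up in the ratio of Gja4 was not tested. Cyp1a1, a detoxifying enzyme, was lower, with 44 and 7 UMIs (0.283, 0.108 to 0.634). Thbd, the anticoagulant thrombomodulin, stood at 1.21 (1.16 to 1.27), within the fold.

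Of 4 tested genes that flow or these factors lower, 3 were lower in hypoxia too, beside 7.94% of all genes. The leukocyte adhesion molecule Vcam1 went from 130.1 to 25.05 CPM (0.192, 0.141 to 0.258), Icam1 from 453 to 157 CPM (0.346, 0.306 to 0.391) and the angiopoietin Angpt2 from 24.2 to 7.01 CPM (0.29, 0.152 to 0.514). Vcam1 was also a marker used to name venous-like cells, which were 58 of 820 EC-like cells in normoxia and 20 of 528 in hypoxia. The part of this make-up in its ratio was not tested. Edn1, which encodes the vasoconstrictor endothelin, stood at 1.2 (1.09 to 1.33), within the fold. Within bins of immediate-early share Vcam1 (0.352, 0.261 to 0.475) and Angpt2 (0.367, 0.202 to 0.666) were still past the fold and Icam1 was not (0.715, 0.628 to 0.814). Gja4 (2.05, 1.83 to 2.29), Nos3 (1.67, 1.27 to 2.21), Ass1 (1.71, 1.31 to 2.23) and Cyp1a1 (0.31, 0.13 to 0.736) were past the fold within bins as well, beside 6.91% of all genes on the higher and 7.73% on the lower side.

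**Figure D5:**
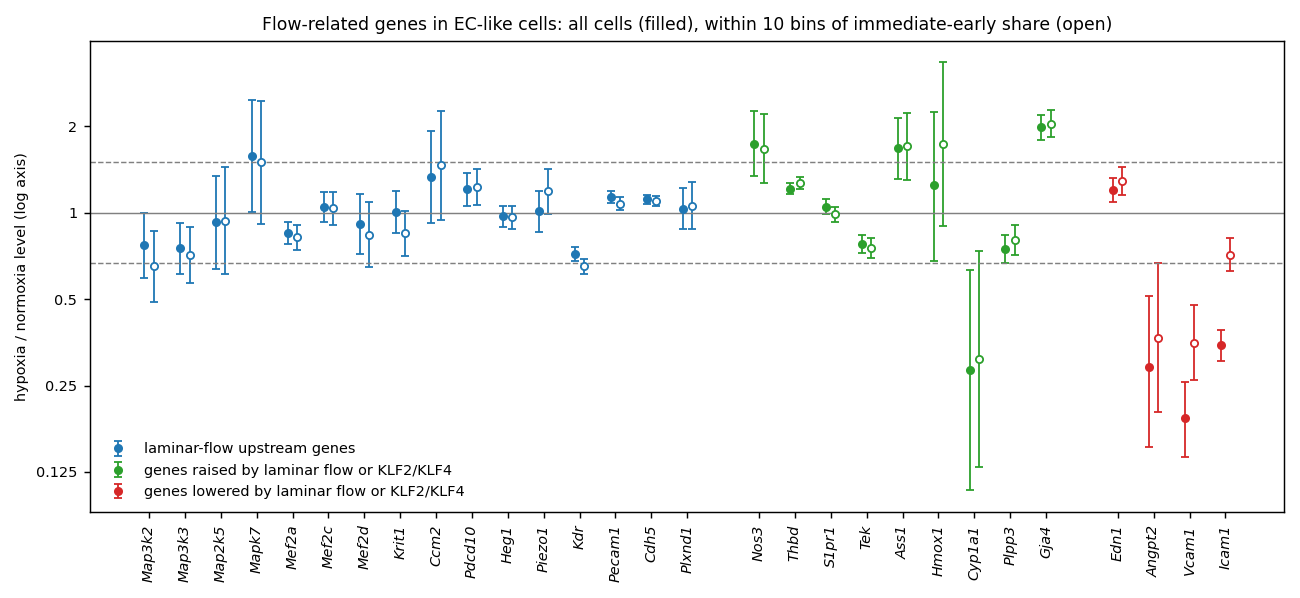
Hypoxia level divided by normoxia level (log axis) of the tested genes of 3 flow lists in EC-like cells, over all cells (filled) and pooled within 10 bins of immediate-early share (open), with 95% intervals and dashed lines at the fold of 1.5. Gja4, Nos3 and Ass1 lie near or above the upper line in both forms, Vcam1 and Angpt2 under the lower one, and the filled and open points part most for Icam1 and Vcam1.

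The immediate-early genes themselves gave the widest difference of any list. All 15 tested were past the fold on the lower side, and their summed ratio was 0.33 (0.324 to 0.336). Fos stood at 1557 and 359 CPM, Egr1 at 2626 and 476 CPM and Fosb at 539 and 53.6 CPM (0.0994, 0.0811 to 0.121). Egr3 (0.12, 0.0628 to 0.21), Nr4a1 (0.238) and Atf3 (0.238) were the next lowest beside Egr1 (0.181) and Fos (0.23).
Among inducers and partners of the other members, read beside the same shares of all genes, 3 of 6 tested glucocorticoid-responsive genes were lower, namely Zbtb16 (0.333), Nfkbia (0.516) and Cebpd (0.589), and Tsc22d3, the glucocorticoid-induced leucine zipper, was higher (1.59, 1.34 to 1.9). Within bins of immediate-early share Cebpd turned to 1.53 (1.41 to 1.66), past the fold on the higher side, and Nfkbia stood at 0.978 (0.889 to 1.08), while Zbtb16 (0.269) and Tsc22d3 (1.54) were past it as before. Of 5 tested TGF-beta early genes Ctgf (0.319) and Tgif1 (0.469) were lower and Pmepa1 higher (2.77, 2.26 to 3.41), and within bins Tgif1 no longer was (0.657, 0.356 to 1.21). None of 4 corepressor genes (Ctbp1, Ctbp2, Sin3a and Sin3b) was past the fold. Of 7 further KLF and SP genes with enough UMIs 1 was, Sp4 at 0.576 (0.397 to 0.821).

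In fibroblast-like cells 5 of the 7 tested members were lower in the hypoxia library, beside 11.3% of all genes, but the cells compared came from different clusters. Klf6 stood at 411 CPM in normoxia and 105 CPM in hypoxia (0.255, 0.116 to 0.49), Klf9 at 476 and 151 CPM (0.318, 0.168 to 0.549), and Klf2, Klf4 and Klf13 at ratios of 0.552, 0.508 and 0.519. In hypoxia 31 of the 34 cells lay in 1 cluster, which held 89 of the 184 normoxia cells. Within it Klf9 had 16 UMIs in normoxia and 10 in hypoxia (1.27, 0.516 to 2.98) and Klf6 had 15 and 6 (0.815, 0.259 to 2.22). All members there were under the minimum of 50 UMIs, so a difference was not detectable at this depth. EC transcripts reached 16.5% of the EC-like level in the fibroblast-like cells of hypoxia, and the immediate-early share 0.293% against 2.38% in normoxia. The part of these in the ratios was not tested. Over all 161 hypoxia and 528 normoxia cells outside the EC-like clusters, Klf7 (0.575), Klf9 (0.348) and Klf13 (0.644) were past the fold on the lower side, beside 18.5% of genes, in groups of unlike make-up. Of these cells, 100 in hypoxia and 221 in normoxia lay in clusters left unnamed, where EC was the class with the largest share of markers detected. EC transcripts there reached 49.1% and 64.4% of the EC-like level, so this pool is not one of non-endothelial cells only.

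Across 11 groups of at least 20 cells (a class or subtype in 1 library), the gene most like Klf2 in its pattern of levels was Klf4, with a Pearson r of 0.977 on log2(CPM + 10), out of 5773 genes. Stx3 (0.959) and Tal1 (0.956), an endothelial and blood transcription factor, came next. Klf4 was most like Stx3 (0.981), Klf2 and Mapk9 (0.966). The likeness of Klf2 and Klf4 depends on the groups taken: over the 7 groups of at least 50 cells the 3 genes most like Klf2 were Ppp1r18, Baiap2 and Ptma, and Klf4 was not among them. Klf3 was nearest to Npr1 (0.972), Elk3 (0.968) and Tal1 (0.966), Klf7 to Cyth3 (0.965), Zfp710 (0.956) and Gnaq (0.955), and Klf13 to Mertk (0.97), Homer3 (0.946) and Hlx (0.941). Klf10 was nearest to Exosc10 (0.976), Togaram1 (0.963) and Gm12216 (0.953), Klf6 to Xrn1 (0.946), Degs1 (0.922) and Lyst (0.916), and Klf9 to Zfp950 (0.921), Afap1 (0.911) and 4930523C07Rik (0.902). The 11 groups share 2 libraries and are mostly ECs, so these values describe the contrast of ECs with other cells first of all. Klf9 was the member least like Klf2, with r of 0.095.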

How the data were processed

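Lung cells of 1 normoxia and 1 hypoxia library were profiled with 10x Genomics 3′ chemistry (v3.1). The authors deposited raw UMI counts per gene and cell barcode, made with Cell Ranger (6.1.2 per the file headers) on mm10, and every count used here is from these deposited matrices. Barcodes needed 200 to 4000 detected genes, and no more than 5% of their UMIs could be mitochondrial. The upper limit was the only step against doublets, as no doublet caller was run. Counts were scaled to 10000, log-transformed, and clustered with scanpy 1.11.5 (2000 variable genes per library without KLF and SP genes, immediate-early genes, Epas1 and Hif1a, 30 components, 15 neighbours, Leiden resolution 2). Clusters were named from marker lists. Subtypes other than general capillary also needed 1 of their markers among the 10 leading genes within ECs, and a cluster with both B cell and myeloid leading genes (19 and 3 cells) was called leukocyte. Both rules were added after the clusters were seen.

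UMIs were summed per group and library, with exact Poisson intervals for levels, exact conditional binomial intervals for ratios and Clopper-Pearson intervals for shares, all at 95%. With 1 library per condition no test was run. Ratios pooled within clusters or bins are Mantel-Haenszel ratios. The interval and the fold rule were tried on simulated Poisson counts. These held no variation between cells or libraries, so they cannot show how the rule behaves under it. All 8 members, the genes of each list past the fold (at most 6 by size of fold) and the 3 genes most like each member are named, and other genes named beside a result were chosen after their values were seen. The members and lists were chosen with earlier results of these data known. Of the lists, 1 gene is not reported here and was left out of its list's counts.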

Additional observations from a re-analysis of the deposited data

Results flagged for a closer look

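Cells above the limit of 4000 detected genes were left out of the main comparisons. Among them 30 normoxia and 13 hypoxia cells met an EC marker gate, and there 3 members were past the fold on the higher side, beside 20.4% of the 3078 genes tested in these cells, with 13.2% on the lower side. The gate asked for UMIs of more than a single one of Cdh5, Pecam1, Cldn5 and Egfl7. It left out no cells with genes of other classes, so these cells need not be ECs. They are given because these cells enter no comparison of the report. Klf2 had 701 CPM in the normoxia and 1085 CPM in the hypoxia library (1.55, 1.32 to 1.82), Klf3 had 187 and 329 CPM (1.76, 1.3 to 2.38), and Klf13 had 212 and 376 CPM (1.77, 1.33 to 2.35). Klf4 (1.38, 1.17 to 1.62) and Klf7 (1.39, 1.11 to 1.73) stayed within the fold. The immediate-early share of these cells was 1.89% in normoxia and 1.08% in hypoxia. For Klf2, EC-like cells stood higher, at 2020 CPM in normoxia and 1500 CPM in hypoxia. Doublets were not called in the gated cells. The part of doublets, free RNA and unlike EC content in these values was not tested.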

How the results depend on the processing

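Over all alternatives 728 values were the same within their interval or count rule, 269 moved and 5 changed direction. In EC-like cells the count of members past the fold went from 2 to 4 with a stricter marker gate, which left out cells with UMIs of other-class genes. It was 5 in EC-like cells without UMIs of other-class genes, 1 in cells above the median immediate-early share and 0 within 10 bins of that share. The ratio of Klf2 was 0.6955 with each library clustered alone, 0.65 with the marker gate, 0.645 without UMIs of other-class genes, 0.711 scaled by the median ratio and 0.691 within shared clusters, and 0.9035 at or below, 0.879 above the median immediate-early share and 0.953 within bins. For Klf4 it was 0.563 clustered alone, 0.579 as a mean over cells, 0.574 within shared clusters, 0.9045 below, 0.803 above and 0.941 within bins. For Klf7 it was 0.552 clustered alone, 0.512 as a mean over cells, 0.546 thinned, 0.6645 below, 0.644 above and 0.668 within bins. Klf2, Klf4, Klf7, Klf9 and Klf10 were below 1 in EC-like cells under all 16 alternatives, Klf3 under 15, Klf6 under 14 and Klf13 under 10. The bins and the removal of clusters led by genes of other classes, which kept every count of members in ECs, were chosen after seeing the data.

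Aerocyte-like cells went from 3 members to 1 in cells below the median share and 1 within bins. General capillary-like cells went from 2 to 1 with a mitochondrial limit of 10%, 4 with a limit of 6000 genes, 1 at resolution 3, 5 without UMIs of other-class genes, 4 scaled by the median ratio, 4 as a mean over cells, 1 above the median share and 1 within bins, and Klf4 there was 1.04 below the median share and 1.07 within bins. Fibroblast-like cells went from 5 to 3 clustered alone, 2 thinned, 2 below and 0 above the median share, with Klf2 at 1.02 clustered alone and 1.42 below it, and Klf4 at 1.615 below it. Aerocyte-like against general capillary-like cells of normoxia went from 3 to 5 below the median share. The cause of these changes was not tested. The median ratio shifted fibroblast-like cells by 0.43 on the log2 scale and aerocyte-like against general capillary-like cells by 0.11 in normoxia and 0.10 in hypoxia, the EC-like cells by 0.06. With groups of at least 50 cells, 7 remained, and at most 1 of the 3 genes most like a member was shared. No paired analysis was possible because there was 1 library in normoxia and 1 in hypoxia.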

Other observations

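Cells above the mitochondrial limit of 5% were left out of the main comparisons and entered only the alternative limit of 10%. Of them, 535 normoxia and 75 hypoxia cells met the EC marker gate. Klf2 stood at 873 and 476 CPM there, a ratio of 0.546 (0.413 to 0.71), Klf4 at 650 and 357 CPM, a ratio of 0.549 (0.396 to 0.744), and Klf7 at 472 and 191 CPM, a ratio of 0.404 (0.256 to 0.609). Klf3 (0.591, 0.344 to 0.956) and Klf9 (0.542, 0.275 to 0.973) were past the fold on the lower side too, unlike in the kept EC-like cells. Klf6 (0.656, 0.367 to 1.09) and Klf10 (1.22, 0.53 to 2.49) had intervals that included 1. Of the 3578 genes tested in these cells, 8.44% were past the fold on the lower and 8.92% on the higher side. Klf13 stood at 211 and 222 CPM (1.06, 0.683 to 1.57). Their immediate-early share was 0.896% in normoxia and 0.307% in hypoxia.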
